A study of Mus musculus with 4 samples.

Results

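The 10 genes of heme breakdown, iron handling and the NRF2 antioxidant response (Hmox1, Nqo1, Gclm, Gclc, Slc7a11, Srxn1, Txnrd1, Fth1, Slc40a1 and Tfrc) were followed on every array of a study of mouse bone marrow-derived macrophages. Members were all probes whose accession belongs to these 10 symbols, which gave 13 of the 39429 probes on the array: 2 for Hmox1, 3 for Tfrc and 1 for each of the other 8 genes. All 13 were among the 28633 probes that passed the filter on dim signals, and none was saturated. Male mice of 6 weeks gave the bone marrow, per the labels, and its cells were cultured for 7 days with 25 ng/ml of the growth factor GM-CSF, and the stimulated cells received E. coli lipopolysaccharide (LPS) at 100 ng/ml for 6 hours. Each array carried wildtype RNA labelled with Cy3 and CDK5R1 knockout RNA labelled with Cy5, with 2 arrays of unstimulated (basal) cells and 2 of LPS-treated cells, named here basal 1, basal 2, LPS 1 and LPS 2. The product of Cdk5r1, p35, switches on the kinase CDK5. Both genotypes carry the same strain name in the labels, B6.129S4-Cdk5r1tm1Lht/J, a Cdk5r1 mutant line. The dyes were not swapped, so a dye effect and the genotype cannot be told apart in the ratio of the channels. The arrays are named biological replicates in the labels, with no word on which animals gave the RNA, so p-values measure the spread between these samples.

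NRF2, the product of Nfe2l2, is a transcription factor that KEAP1 marks for degradation and that oxidants and electrophiles release to switch on genes of glutathione synthesis, thioredoxin reduction and quinone detoxification. Heme oxygenase 1 opens the heme ring and sets free iron, carbon monoxide and biliverdin, and its gene is held down by the heme-sensing repressor BACH1. Macrophages store the freed iron in ferritin or export it through ferroportin, take up iron through the transferrin receptor, and withhold iron from bacteria during inflammation.

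The targeted gene was lower in the knockout channel on every array. Its 2 probes gave log2 ratios from -0.59 to -0.37 in basal cells and from -2.55 to -2.00 after LPS. It is not known here which part of Cdk5r1 the mutation removes or whether the probes lie inside it, so these ratios are a limited check of the knockout. Between 62.1% and 71.0% of all probe spots were well above background in a channel. Of 11 macrophage markers, 10 were measured, all of them well above background for both genotypes throughout, as were all 8 dendritic cell markers. The summed macrophage markers had log2 ratios of 0.19, 0.06, 0.04 and -0.19 on basal 1, basal 2, LPS 1 and LPS 2. The dendritic cell sum had -0.11, -0.12, -0.04 and 0.19. Under LPS Cd14, Fcgr1 and Mrc1 were lower in the knockout, by -0.51, -0.47 and -0.53 (limma adjusted p below 0.05). By the same threshold Itgax and Btla were lower, by -0.59 and -0.51, and Dpp4 and Kmo higher, by 1.26 and 0.37. Lyz2 and Mrc1 were lower in basal cells, by -0.46 and -0.38. Of 10 neutrophil and granulocyte precursor markers, 9 were measured and all were above background. Their summed level was lower in the knockout channel on each array, with log2 ratios of -1.04, -1.05, -1.41 and -1.55. The log2 of that sum lay between 16.77 and 17.39 in basal wildtype and between 15.73 and 16.34 in basal knockout cells. After LPS it lay between 18.17 and 18.34 in wildtype and between 16.76 and 16.79 in knockout cells. S100a8 and S100a9 were the brightest members and weigh most in the sum. On basal 1, basal 2, LPS 1 and LPS 2 the ratios of Mpo were -0.19, -0.18, 0.65 and 0.13. Elane was at -0.0037, -0.32, -0.10 and -0.28, and the other measured markers of this list were lower on every array. All 7 eosinophil, mast cell and basophil markers were measured, 5 of them above background throughout, and their summed log2 ratios were -0.50, -0.26, -0.98 and -1.38. In this list the eosinophil genes Epx and Prg2 were lower, by -1.42 and -1.50 in basal cells (limma adjusted p = 0.0066 and 0.0038), while the mast cell gene Cpa3 and the basophil gene Mcpt8 were higher, by 0.81 and 0.73 (limma adjusted p = 0.023 and 0.028). Of 12 erythroid markers, 11 were measured and 6 were above background throughout, with summed log2 ratios of 0.40 and -0.10 in basal cells against 1.32 and 1.53 after LPS. On the LPS arrays Hbb-bt, a beta globin gene, had ratios of 2.04 and 1.98, while those of Hba-a1 were 0.03 and 0.01 and those of Slc4a1 0.10 and 0.09. Those of Hba-a2 were 0.37 and 0.30, of Ermap 0.20 and 0.42 and of Epor 0.04 and 0.15. The LPS difference of Hba-a2 was 0.33 (limma adjusted p = 0.027). The erythroid marker Alas2 was not well above background in either channel of any array. The shifts of the granulocyte genes and of Epx and Prg2 stand beside every genotype difference given here, and that of the erythroid sum beside those under LPS. The differences of single macrophage and dendritic cell markers stand beside them too. The part of all these shifts in the results was not tested. In bulk RNA, fewer cells of a type and less RNA per cell cannot be told apart.

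Hmox1 was lower in knockout than in wildtype cells on all 4 arrays by both of its probes, with a size that differed widely between arrays. Its probe 1 read 12.95 and 11.89 in the wildtype channel of basal arrays 1 and 2, and 11.01 and 10.46 in the knockout channel (log2 normalised intensity). On LPS arrays 1 and 2, probe 1 read 11.86 and 12.29 in wildtype cells and 9.43 and 11.93 in knockout cells. The wildtype and knockout ranges did not overlap among the basal arrays, whereas the knockout value of LPS 2 lay above the wildtype value of LPS 1. The log2 ratios of knockout over wildtype were therefore -1.95, -1.43, -2.43 and -0.35 on basal 1, basal 2, LPS 1 and LPS 2. The scanner signals before normalisation showed the same spread: Cy5 read 678 on LPS 1 and 4055.5 on LPS 2, and Cy3 read 2534 and 3721.

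**Figure D1:**
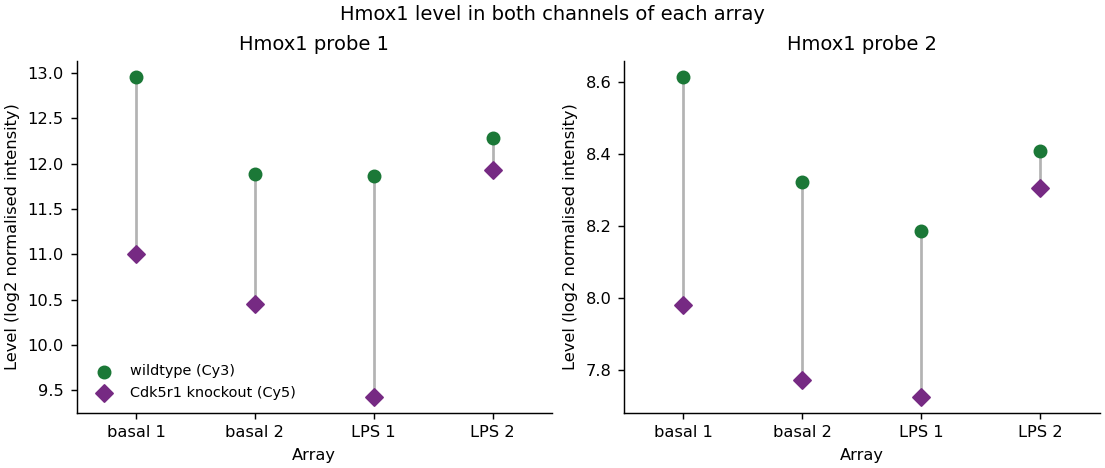
Normalised level (log2 intensity, vertical axis) of the 2 Hmox1 probes in the wildtype (circles) and Cdk5r1 knockout (diamonds) channel of each of the 4 arrays (horizontal axis). The knockout symbol is below the wildtype symbol on all 4 arrays for both probes, and the distance is smallest on LPS 2.

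Probe 2 of Hmox1 was also lower in the knockout channel throughout. It read 8.61, 8.32, 8.18 and 8.41 in the wildtype channel of basal 1, basal 2, LPS 1 and LPS 2, and 7.98, 7.77, 7.72 and 8.30 in the knockout channel. Its log2 ratios were -0.63, -0.55, -0.46 and -0.10, so LPS 2 again gave the smallest difference, while the largest was on basal 1 and not on LPS 1. Over the 8 channel levels the probes followed each other with a Pearson r of 0.97, a description in which the channels of an array share a slide and a hybridisation.

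In basal cells, probe 2 was the single member probe of 13 called at an adjusted p below 0.05 (limma, Benjamini-Hochberg over all 28633 probes), where 4.51% of all probes were called and 1.42% were called lower. It was lower by -0.59 ± 0.10 on the log2 scale (standard error, n = 2 arrays, limma adjusted p = 0.020), a 1.51-fold difference. For genotype differences the fit takes a shared spread from the basal and LPS arrays. The gap between the LPS arrays, given below, therefore also enters the basal standard errors and p-values. Probe 1 had the larger difference, -1.69 ± 0.42 or 3.22-fold, and an adjusted p of 0.086 in the same limma fit. Under LPS neither probe was called: probe 1 differed by -1.39 ± 0.42 (limma adjusted p = 0.081) and probe 2 by -0.28 ± 0.10 (limma adjusted p = 0.12). Without LPS 1 the difference of probe 1 under LPS was -0.35, and without LPS 2 it was -2.43. Averaged over basal and LPS arrays, both probes were called lower, probe 1 by -1.54 ± 0.30 (limma adjusted p = 0.017) and probe 2 by -0.44 ± 0.07 (limma adjusted p = 0.0081).

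The gap between the LPS arrays was larger for Hmox1 probe 1 than for any other probe tested. Its log2 ratio differed by 2.08 between LPS 1 and LPS 2, rank 1 of 28633 probes, where the median probe differed by 0.12. Probe 2 differed by 0.36, a gap that 7.57% of probes reached. The knockout level of probe 1 was 2.50 higher on LPS 2 than on LPS 1, and the wildtype level of probe 1 was 0.43 higher. Between the basal arrays the ratio of probe 1 differed by 0.52, a gap reached by 2.85% of probes, and its wildtype level alone differed by 1.07.

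**Figure D2:**
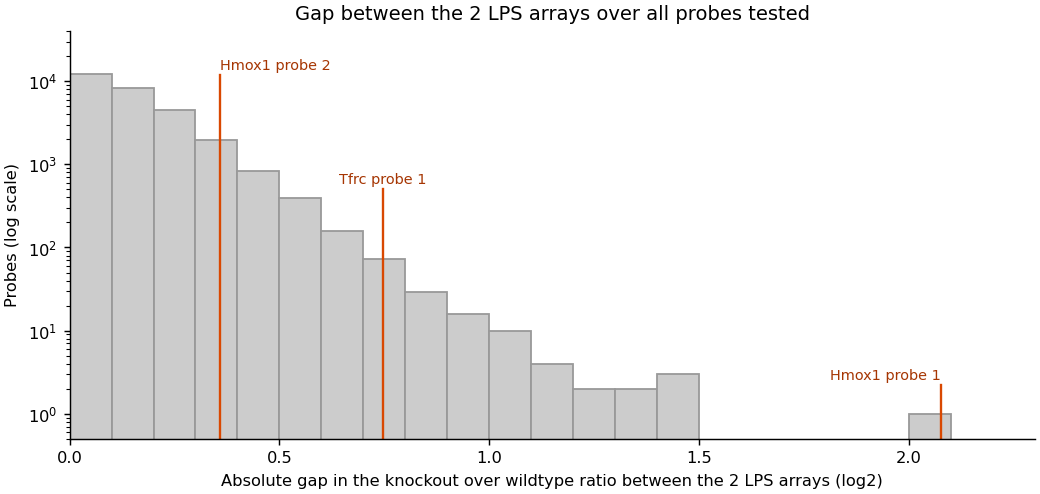
Number of probes (vertical axis, log scale) by the absolute gap in the log2 knockout over wildtype ratio between LPS 1 and LPS 2 (horizontal axis), over all 28633 probes tested. Vertical lines mark Hmox1 probe 1 at 2.08, alone at the right end, Tfrc probe 1 at 0.75 and Hmox1 probe 2 at 0.36.

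LPS gave no called change of Hmox1 in either genotype. Probe 1 differed from basal by -0.35 ± 0.38 in wildtype cells (limma adjusted p = 0.52) and by -0.05 ± 0.85 in knockout cells (limma adjusted p = 0.97). The knockout value rests on which LPS array is read: it was 1.20 without LPS 1 and -1.30 without LPS 2. With 1 LPS array left, here and below, the spread comes from the basal arrays and the lone array is assumed to vary like them. Probe 2 differed by -0.17 ± 0.15 in wildtype and 0.14 ± 0.22 in knockout cells.

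Slc40a1 and Gclm also had a ratio below 0 on each array and were called lower in knockout cells under LPS. These were 2 of the 13 probes, where 11.5% of all probes were called and 4.83% were called lower. Slc40a1 encodes ferroportin, the exporter of iron from macrophages. Its levels were 11.43, 10.88, 10.13 and 9.79 in wildtype cells and 11.24, 10.50, 9.62 and 9.24 in knockout cells, in the order basal 1, basal 2, LPS 1 and LPS 2. Knockout was below wildtype on each array, with log2 ratios of -0.19, -0.38, -0.51 and -0.56, and the LPS values of the genotypes did not overlap. The LPS difference was -0.53 ± 0.08 (limma adjusted p = 0.0077, 1.45-fold lower), and the basal difference was -0.28 ± 0.08 (limma adjusted p = 0.11). The LPS call passed in 8 of 12 alternatives. It was lost at -0.56 without LPS 1 (limma adjusted p = 0.093) and at -0.51 without LPS 2 (limma adjusted p = 0.11), and also with the processed signals and the value table of the authors (limma adjusted p = 0.055 and 0.054).

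Gclm encodes the modifier subunit of glutamate-cysteine ligase, the enzyme that starts glutathione synthesis. It read 9.86, 10.14, 9.49 and 9.39 in wildtype and 9.68, 9.92, 9.13 and 9.11 in knockout cells. The ratios were small and alike, at -0.18, -0.22, -0.36 and -0.28. Under LPS the difference was -0.32 ± 0.07 (limma adjusted p = 0.030, 1.25-fold lower), and in basal cells it was -0.20 ± 0.07 (limma adjusted p = 0.19). The LPS call passed in 6 of 12 alternatives. It was lost without LPS 1 (limma adjusted p = 0.23), without LPS 2 (limma adjusted p = 0.14), with median centring in place of loess (limma adjusted p = 0.11), and with the processed signals and the value table of the authors (limma adjusted p = 0.085 and 0.081). Averaged over both conditions, 4 of the 13 probes were called, all lower: both Hmox1 probes, Gclm and Slc40a1, where 17.2% of all probes were called and 7.83% were called lower. With median centring of the ratios in place of the intensity-dependent loess, the split of the members' calls was 4 higher and 3 lower in that average, 3 and 2 in basal cells and 2 and 2 under LPS.

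The other 7 genes had no called difference between the genotypes in basal cells, under LPS or in the average. Srxn1 and Txnrd1 had log2 ratios on single arrays from -0.07 to 0.09 and from 0.01 to 0.12. Gclc lay between -0.10 and 0.19, Slc7a11 between -0.26 and 0.23 and Fth1 between 0.03 and 0.19. The genotype difference of Fth1 depended on the processing. Over 12 alternatives it ran from -0.05 to 0.81 in basal cells and from -0.21 to 0.77 under LPS, and it was called in 1 of them in each condition. Txnrd1 was called in 1 of 12 in basal cells, under LPS and in the average. Srxn1 was called in 1 in basal cells and in the average, and Gclc in 1 in the average. Both Tfrc probes 1 and 2 were called in 1 in the average, and probe 2 in 2 of 11 under LPS. Nqo1, a quinone reductase often used as a readout of NRF2, had ratios of 0.01 and 0.28 in basal cells and -0.23 and -0.13 after LPS. The difference between its genotype effects in the 2 conditions was -0.32 ± 0.12 (limma adjusted p = 0.44). Tfrc probe 1 was at 0.42, 0.29 and 0.31 on basal 1, basal 2 and LPS 1 but at -0.44 on LPS 2, and its 10 spots on that array all lay between -0.66 and -0.27. Tfrc probe 2 was at 0.50, -0.19, -0.32 and -0.44, with the opposite sign to probe 1 on basal 2 and LPS 1, and probe 3 lay between -0.01 and 0.12.

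**Figure D3:**
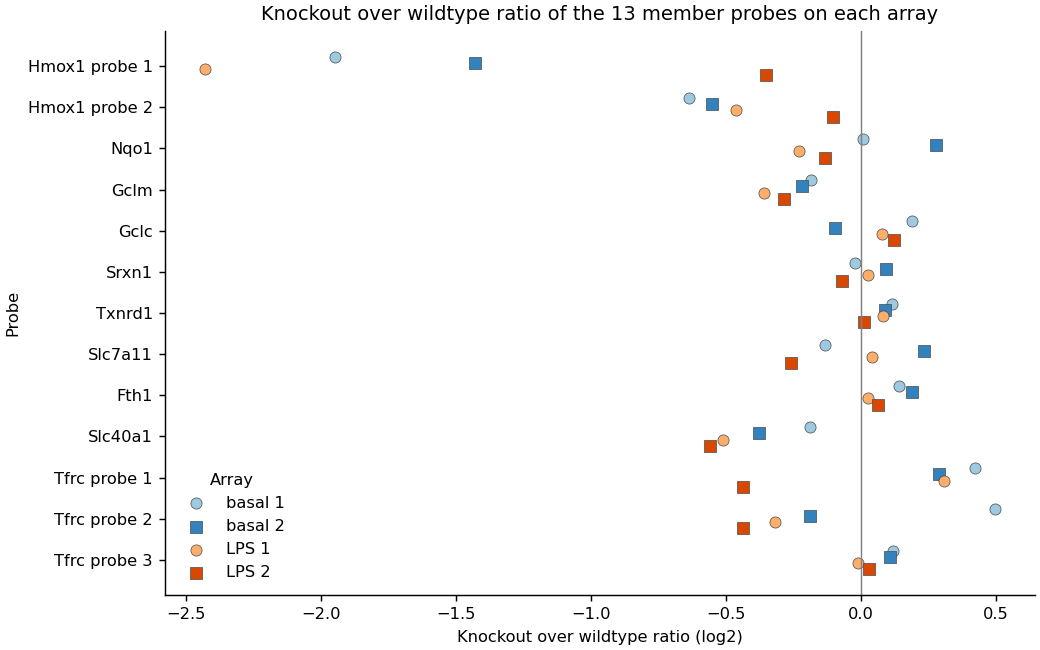
Log2 ratio of knockout over wildtype (horizontal axis) on each of the 4 arrays (colours and symbols) for the 13 member probes (vertical axis). Hmox1 probe 1 spans from -2.43 to -0.35, Slc40a1 and Gclm lie left of 0 on all 4 arrays, and the Srxn1 and Txnrd1 points lie within 0.12 of 0.

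No member probe was called for a difference in its genotype effect between LPS and basal cells. In this test 0 of 13 probes passed in limma, 2 had an unadjusted p below 0.05 (Nqo1 and Tfrc probe 2), and 0.402% of all probes were called. For Hmox1 probe 1 the difference of the effects was 0.30 ± 0.59 and for Slc40a1 -0.25 ± 0.11.

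LPS moved most members in both genotypes. In wildtype cells 8 of 13 probes were called, 1 higher and 7 lower, where 41.0% of all probes were called, 18.3% higher and 22.7% lower. In knockout cells the count was also 8, again 1 higher and 7 lower, where 41.2% of all probes were called, 19.2% higher and 22.0% lower. Basal and LPS RNA were on different arrays, so these changes compare channel levels across arrays. The mean log2 intensity of both channels was quantile-scaled across arrays, and each channel level was rebuilt from it and the ratio. The log2 of the summed macrophage markers lay between 18.21 and 18.44 in basal and between 17.29 and 17.63 in LPS cells, while the sum of the dendritic cell markers lay between 16.63 and 16.94 in basal and between 17.70 and 17.90 in LPS cells. The granulocyte sum given above was also higher after LPS in both genotypes. Such sums weigh the brightest genes most, and members of the macrophage and dendritic cell lists went both ways. In wildtype cells the macrophage marker Csf1r fell by -1.89 and Cd14 rose by 2.27. Among dendritic cell markers Ccr7 rose by 3.43 and Cd209a fell by -2.25. The part of the shifts in these sums in the results was not tested. Scaling to the 75th percentile in place of quantile scaling moved the median of all genes by 0.37 in wildtype and 0.35 in knockout cells. With it, 10 probes were called in each genotype, 3 higher and 7 lower.

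Slc7a11 rose and the glutamate-cysteine ligase subunits fell. Slc7a11 is the cystine importer that supplies cysteine for glutathione. It went from 9.50 and 9.30 in basal wildtype cells to 11.10 and 10.82 after LPS, and from 9.36 and 9.53 to 11.14 and 10.56 in knockout cells. All LPS values were above all basal values, and the change was 1.56 ± 0.14 in wildtype (limma adjusted p = 0.0020, 2.95-fold) and 1.40 ± 0.22 in knockout cells (limma adjusted p = 0.0093, 2.65-fold). Gclc, the catalytic subunit of the ligase, went from 11.83 and 12.15 to 10.54 and 10.45 in wildtype cells and from 12.02 and 12.06 to 10.62 and 10.57 in knockout cells. Basal and LPS values were far apart, with a fall of -1.50 ± 0.14 in wildtype (limma adjusted p = 0.0021) and -1.45 ± 0.10 in knockout cells (limma adjusted p = 0.0013). The modifier subunit Gclm fell by less, -0.56 ± 0.13 in wildtype (limma adjusted p = 0.026) and -0.68 ± 0.13 in knockout cells (limma adjusted p = 0.014). Slc3a2, the partner chain of Slc7a11 and named after its values were seen, rose by 0.61 in wildtype cells (limma adjusted p = 0.0088) and was at 0.29 in knockout cells (limma adjusted p = 0.076).

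In the thioredoxin branch Srxn1 fell. Srxn1, sulfiredoxin, which restores overoxidised peroxiredoxins, read 14.14, 14.24, 13.26 and 13.31 in wildtype and 14.12, 14.33, 13.29 and 13.24 in knockout cells. Its LPS values were below its basal values in both genotypes, a fall of -0.90 ± 0.10 (limma adjusted p = 0.0029) and -0.96 ± 0.12 (limma adjusted p = 0.0052). Txnrd1, the cytosolic thioredoxin reductase, read 13.35, 13.56, 14.15 and 13.72 in wildtype and 13.47, 13.64, 14.23 and 13.73 in knockout cells. Every LPS value of Txnrd1 was above every basal value, and the difference was not called: 0.48 ± 0.18 in wildtype (limma adjusted p = 0.092) and 0.43 ± 0.20 in knockout cells (limma adjusted p = 0.16). The size of the difference rested on LPS 1, which read above LPS 2 in both genotypes: without LPS 2 it was at 0.70 and 0.68. The change of Txnrd1 was called in 3 of 12 alternatives in wildtype and in 2 of 12 in knockout cells. Nqo1 differed by 0.13 ± 0.13 in wildtype and -0.20 ± 0.13 in knockout cells and was called in neither.

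Promoter windows of the members were searched for the core of the antioxidant response element. NRF2 with a small MAF protein binds a core written TGACNNNGC, and TGAGTCA is the related AP-1 core. RefSeq windows of 300 bases, 250 before and 50 after a transcript start (build GRCm38.p6), were matched for 7 of the 10 members, with 11 windows in all. Hmox1, Gclc and Slc40a1 had no window in the set used and were not searched. On either strand TGACNNNGC occurred in 12.4% and TGAGTCA in 5.20% of all 32851 windows. Upstream of the start, matches were found in Srxn1, Gclm and 1 of the 3 Txnrd1 windows, shown here 5′ to 3′ on the plus strand with the matching bases in capitals. The Srxn1 stretch is chr2:152105402-152105505 and holds 2 TGAGTCA matches, the Gclm stretch is chr3:122245403-122245451, and the Txnrd1 stretch is chr10:82859094-82859142. In the last 2 the capitals are TGACNNNGC read on the other strand. Srxn1 held a further TGACNNNGC match 29 bases past its start, which is not shown, and no match of the motifs overlapped another.
Srxn1: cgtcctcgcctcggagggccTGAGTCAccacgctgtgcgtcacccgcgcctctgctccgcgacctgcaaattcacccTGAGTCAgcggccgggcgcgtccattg
Gclm: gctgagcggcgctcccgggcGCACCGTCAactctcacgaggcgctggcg
Txnrd1: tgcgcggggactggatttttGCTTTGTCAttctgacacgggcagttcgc
A match is a run of letters and not a measured binding site. Of the genes shown, Srxn1 and Gclm fell with LPS, and the change of Txnrd1 was not called.

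The transcripts of the iron importer Tfrc and the iron exporter Slc40a1 fell with LPS in both genotypes, and the change of the heavy ferritin chain Fth1 was not called. Tfrc encodes the transferrin receptor, which brings iron into the cell. Its probe 1 read 10.44, 10.16, 8.43 and 7.68 in wildtype and 10.87, 10.45, 8.74 and 7.24 in knockout cells, and its probe 2 read 10.38, 10.63, 8.81 and 7.27 in wildtype and 10.88, 10.45, 8.49 and 6.83 in knockout cells. LPS 2 was below LPS 1 in both channels, and every LPS value was below every basal value of the same probe. Probe 1 fell by -2.25 ± 0.28 in wildtype (limma adjusted p = 0.0043, 4.74-fold) and by -2.67 ± 0.52 in knockout cells (limma adjusted p = 0.017, 6.35-fold). Probe 2 fell by -2.47 ± 0.51 and -3.0 ± 0.57 (limma adjusted p = 0.019 and 0.016). Probe 3, which was well above background on 3 wildtype and 2 knockout arrays, fell by -0.81 ± 0.15 and -0.92 ± 0.14 (limma adjusted p = 0.013 and 0.0095).

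Slc40a1 fell by -1.19 ± 0.23 in wildtype (limma adjusted p = 0.015, 2.29-fold) and -1.44 ± 0.29 in knockout cells (limma adjusted p = 0.019, 2.72-fold). Fth1, the ferroxidase chain of ferritin, read between 17.73 and 17.85 in the wildtype and between 17.83 and 17.97 in the knockout channel. Its change with LPS was 0.05 ± 0.09 in wildtype and -0.07 ± 0.10 in knockout cells (limma adjusted p = 0.71 and 0.61). With scaling to the 75th percentile Fth1 in knockout cells was at 0.55 (limma adjusted p = 0.012), where the median of all genes was at 0.35. In wildtype cells the change of Fth1 ran from 0.01 to 0.69 over 12 alternatives and was called in 1 of them. Whether Fth1 changed with LPS thus depended on the scaling. With 1 basal array left out, fewer calls passed: without basal 1 or without basal 2, 5 member probes were called in wildtype and 3 in knockout cells.

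**Figure D4:**
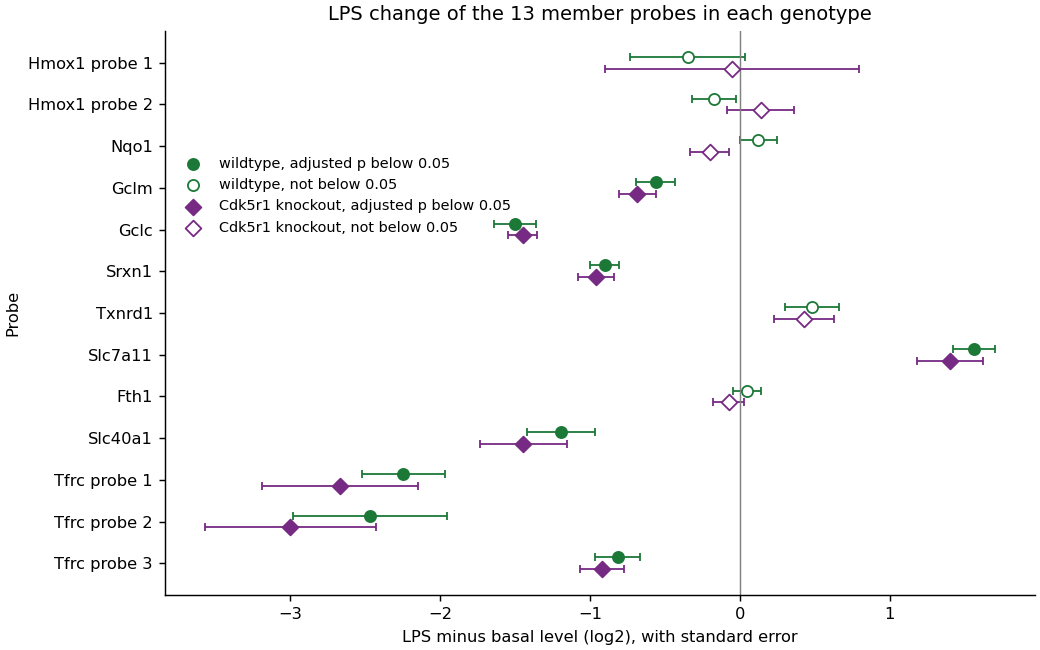
Change with LPS (horizontal axis, log2 level in LPS minus basal cells, bars showing 1 standard error) of the 13 member probes (vertical axis) in wildtype (circles) and Cdk5r1 knockout cells (diamonds). Filled symbols have a limma adjusted p below 0.05: Slc7a11 lies to the right, and Gclm, Gclc, Srxn1, Slc40a1 and the 3 Tfrc probes lie to the left in both genotypes.

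The other genes of these pathways were read from 5 lists with 82 genes tested, each by its brightest probe. With LPS, 53 of the 82 were called in wildtype cells, 20 higher and 33 lower, where 40.9% of all genes were called, 18.2% higher and 22.7% lower. In knockout cells 45 were called, 16 higher and 29 lower, where 41.1% of all genes were called, 19.1% higher and 22.0% lower. Without basal 1 the wildtype count was 23 and without basal 2 it was 24, and in knockout cells these counts were 22 and 11. With scaling to the 75th percentile the split was 29 higher and 24 lower in wildtype and 23 and 21 in knockout cells.

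Of 9 regulators of NRF2, 5 rose and 3 fell with LPS in wildtype cells, with a median of 0.55 against 0.00 over all genes. Among all genes 18.2% rose and 22.7% fell. Keap1, the adaptor that marks NRF2 for degradation, rose by 1.53 ± 0.15 in wildtype (limma adjusted p = 0.0023) and by 1.41 ± 0.21 in knockout cells (limma adjusted p = 0.0084). Bach1, the repressor of Hmox1, fell by -1.60 ± 0.13 and -1.82 ± 0.15 (limma adjusted p = 0.0015 and 0.0021). Nfe2l2 itself fell by -0.49 ± 0.09 and -0.70 ± 0.13 (limma adjusted p = 0.014 and 0.013), though under scaling to the 75th percentile its wildtype value was 0.06. Sqstm1, which encodes the KEAP1-binding autophagy receptor p62, rose by 1.83 in wildtype and 2.12 in knockout cells.

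Of 28 other NRF2 and glutathione genes, 5 rose and 12 fell in wildtype cells, and 4 rose and 11 fell in knockout cells. Among all genes 18.2% rose and 22.7% fell in wildtype, and 19.1% and 22.0% in knockout cells. With scaling to the 75th percentile the split of this list was 7 higher and 6 lower in wildtype and 5 and 5 in knockout cells. Sod2, the mitochondrial superoxide dismutase, rose by 2.02 ± 0.19 in wildtype and 1.90 ± 0.20 in knockout cells (limma adjusted p = 0.0022 and 0.0035). Osgin1 fell by -1.80 and -2.16, and the carbonyl reductase Cbr3 fell by -1.49 in wildtype cells. Sesn2, a sestrin, fell by -1.40 in wildtype and -1.83 in knockout cells. The epoxide hydrolase Ephx1 fell by -1.74 and -1.81 by its brightest probe, while its other probe was at -0.57 in wildtype (limma adjusted p = 0.030) and -0.25 in knockout cells (limma adjusted p = 0.19). The peroxiredoxin Prdx1, a substrate of Srxn1 and named after its values were seen, rose by 0.68 in wildtype and 0.70 in knockout cells.

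Of 9 heme synthesis genes, 1 rose and 6 fell in wildtype cells, and 0 rose and 4 fell in knockout cells. Alas1, which makes the first committed product of the pathway, rose by 0.55 ± 0.13 in wildtype cells (limma adjusted p = 0.027) and was at 0.22 ± 0.13 in knockout cells (limma adjusted p = 0.24), while its dimmer probe was at 1.33 and 1.31. Fech, ferrochelatase, which inserts the iron, fell by -0.95 and -1.03, and the mitochondrial glycine carrier Slc25a38 fell by -1.09 and -1.41. Of 13 heme transport and breakdown genes, 1 rose and 7 fell in wildtype cells, and 1 rose and 6 fell in knockout cells. Beside both heme lists, 18.2% of all genes rose and 22.7% fell in wildtype, and 19.1% and 22.0% in knockout cells. Hp, haptoglobin, which binds free hemoglobin, rose by 3.0 ± 0.27 in wildtype and 2.89 ± 0.54 in knockout cells (limma adjusted p = 0.0019 and 0.015). Slc48a1, which carries heme out of the phagolysosome, fell by -2.45 ± 0.22 and -2.40 ± 0.36 (limma adjusted p = 0.0019 and 0.0087), and the heme exporter Flvcr1 fell by -1.20 and -1.48. Hmox2, the constitutive heme oxygenase, was at 0.22 in wildtype and 0.19 in knockout cells and was not called.

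Of 23 further iron genes, 8 rose and 5 fell in wildtype cells, and 7 rose and 5 fell in knockout cells. Among all genes 18.2% rose and 22.7% fell in wildtype, and 19.1% and 22.0% in knockout cells. With scaling to the 75th percentile the split of this list was 13 higher and 3 lower in wildtype and 10 and 4 in knockout cells. Hamp, the hormone hepcidin that makes ferroportin degrade, was not well above background in basal cells and was at least 25.0-fold higher after LPS in wildtype and at least 30.1-fold higher in knockout cells (limma adjusted p = 0.0013 and 0.0025). These bounds set the mean LPS level against, on each basal array, the lowest signal well above background or the signal of the probe itself where that was higher. In knockout cells the probe's own signal was the higher one, so that bound equals the measured ratio. Lcn2, a carrier that captures bacterial siderophores and is also in the granulocyte list, rose by 4.21 ± 0.32 and 4.15 ± 0.37 (limma adjusted p = 0.0013 and 0.0023). Hfe, a regulator of iron sensing, fell by -1.76 ± 0.15 and -1.40 ± 0.16 (limma adjusted p = 0.0016 and 0.0041). Of the iron regulatory proteins, Ireb2 rose by 0.68 and 0.69 and Aco1 fell by -0.55 and -0.68. Slc11a1, the phagosomal metal transporter, fell by -0.53 and -0.61.

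**Figure D5:**
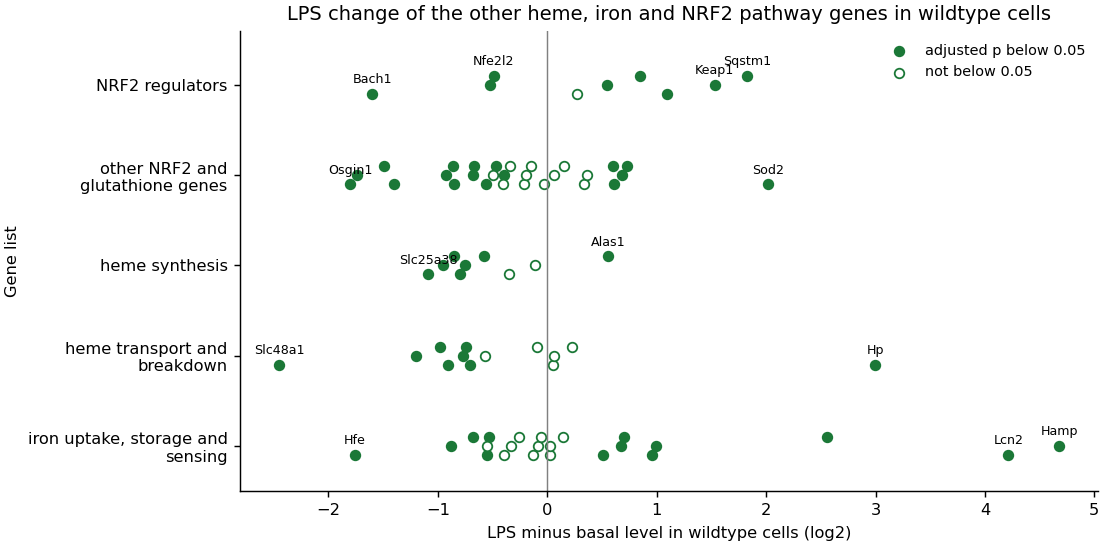
Change with LPS in wildtype cells (horizontal axis, log2) of the genes of 5 pathway lists (vertical axis), 1 point for each of 82 genes, filled where the limma adjusted p is below 0.05. Hamp, Lcn2 and Hp stand at the right, and Slc48a1, Osgin1, Hfe and Bach1 at the left.

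Genotype differences in these lists were fewer. In basal cells 7 of 82 genes were called, 3 higher and 4 lower in the knockout, where 4.84% of all genes were called, 3.36% higher and 1.48% lower. Under LPS 19 were called, 5 higher and 14 lower, where 12.1% of all genes were called, 7.01% higher and 5.11% lower. With the processed signals the basal and LPS counts were 1 and 1, and with the value table of the authors 1 and 2. The LPS count was 0 without LPS 1 and 3 without LPS 2, and with median centring the split under LPS was 16 higher and 5 lower. The basal count was 3 without basal 1, and with median centring the basal split was 23 higher and 3 lower.

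Hp was lower in knockout cells in both states, by -1.09 ± 0.18 in basal cells (limma adjusted p = 0.022) and -1.20 ± 0.18 under LPS (limma adjusted p = 0.0099). Lcn2 was lower by -0.54 ± 0.07 and -0.61 ± 0.07 (limma adjusted p = 0.0081 and 0.0035). These differences lay beside the lower granulocyte marker sum given above. Ftl1, the light chain of ferritin, was higher by 0.54 ± 0.07 in basal cells and 0.74 ± 0.07 under LPS by its brightest probe (limma adjusted p = 0.0097 and 0.0021), while its other probe gave 0.09 and 0.29 and was not called. Ferritin light chain has near-identical copies in the mouse genome, and which of them each probe reads is uncertain.

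Cd163, the receptor for haptoglobin bound to hemoglobin, was not well above background in wildtype cells on any array. It was at least 1.56-fold higher in knockout cells at baseline and at least 1.42-fold higher under LPS (limma adjusted p = 0.0091 and 0.021). Cpox, a late enzyme of heme synthesis, was higher by 0.64 ± 0.11 and 0.49 ± 0.11 (limma adjusted p = 0.025 and 0.037), and Alas1 was lower under LPS by -0.53 ± 0.08 (limma adjusted p = 0.010). The Alas1 call passed in 8 of 12 alternatives, with values from -0.58 to -0.02, and its other probe was at -0.09 (limma adjusted p = 0.42). Among the NRF2 regulators Nfe2l2 was called lower under LPS, by -0.36 ± 0.08 (limma adjusted p = 0.032), a call that passed in 6 of 12 alternatives, with values from -0.43 to 0.0041. Of the other NRF2 and glutathione genes, 7 of 28 were called lower under LPS and 0 higher, where 5.11% of all genes were called lower and 7.01% higher, with 16 at an unadjusted p below 0.05. This count turned to 7 higher and 3 lower with median centring, was 0 in both directions with the processed signals and the value table of the authors, and was 0 lower without LPS 1 and 1 lower without LPS 2. They were led by the microsomal glutathione transferase Mgst2, at -0.83 ± 0.11, and the pentose phosphate enzyme Tkt, at -0.76 ± 0.12 (limma adjusted p = 0.0050 and 0.011). Keap1 was at 0.05 in basal cells and -0.07 under LPS and was not called.

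No gene of the 5 lists was called for a difference in its genotype effect between LPS and basal cells. The limma test called 0 of 82, where 0.420% of all genes were called, and 13 had an unadjusted p below 0.05.

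The pattern of Hmox1 over the 8 channel levels was set beside those of 4768 genes with a standard deviation of at least 0.5. The 5 closest were Sirpb1a (Pearson r = 0.86), Arid3a (0.84), Serinc3 (0.76), Fn1 (0.75) and Abi3 (0.72). Sirpb1a had log2 ratios of -1.24, -0.89, -0.78 and -0.82, and Arid3a had -0.38, -0.35, -1.04 and -0.49. Arid3a was lowest on LPS 1, as Hmox1 was, and Abi3 was at -0.51 on LPS 1 and 0.33 on LPS 2. The other 9 members had r with Hmox1 between -0.77 (Fth1) and 0.27 (Slc40a1). Levels of an array share its slide and hybridisation, so these values describe the 8 channels and carry no test.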

How the data were processed

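Total RNA of each genotype was labelled in 1 of 2 colours and hybridised to Agilent arrays on 1 slide. Per the file headers, the deposited median spot and background intensities come from Agilent Feature Extraction 11.5.1.1, while the submitters' processing notes name version 9.3.2.1. In the deposited value table, each number is a log2 ratio (knockout over wildtype) that matched the log2 ratio of the files' processed signals, up to a constant for each array, within 0.001. In limma 3.58.1 (R 4.3.3), intensities were background-corrected (normexp, offset 50), loess-normalised within arrays and Aquantile-scaled between arrays, and spots of a probe were averaged. Probes well above background in a channel on at least 2 of 4 arrays were kept (28633). Each probe was fitted with lmFit and eBayes, with ratios for genotype and channel levels for LPS, and p-values were adjusted by Benjamini-Hochberg over all kept probes at 0.05. The fits were tested on simulated data: 100% of log2 changes of 1 were recovered for the ratios and 91.0% for channel levels. The simulated noise was normal, independent between arrays and sized by the spreads fitted here. These shares therefore check the code and do not give the power in the real data, and a gene not called may still differ. A gene stands by its brightest probe in list counts. Probes were named through RefSeq accessions. Text named all member probes, up to 3 called genes per list and direction, 9 preset genes, and others only where said. Members and lists were chosen with earlier results of these data known. The number of arrays limits the precision.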

Additional observations from a re-analysis of the deposited data

How the results depend on the processing

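Of 78 member values (13 probes in 6 comparisons), 23 were called, and none of these changed sign under any alternative run, while 27 of the 55 others did so at least once. The called member probes for knockout against wildtype numbered 1 in basal cells, 2 under LPS and 4 in the average. With the processed signals these counts were 0, 0 and 2, the value table of the authors gave 0, 0 and 2, and median centring gave 5, 4 and 7. Same-numbered arrays deviated with correlations of -0.17 (ratio), -0.19 (wildtype) and -0.08 (knockout), so numbers were not taken as pairs. With the replicate block the basal count was 2, adding Hmox1 probe 1, the LPS count stayed at 2 with Hmox1 probe 1 in place of Gclm, the averaged count was 4 and the wildtype LPS response had 7. With the crossed replicate block, chosen after seeing the data, the 3 genotype counts were 2, 3 and 4. Leaving out an array gave 0 to 2 calls in basal cells, 0 to 4 under LPS, 3 to 5 in the average, 5 to 7 for LPS in wildtype and 3 to 10 for LPS in knockout cells. The genotype difference of Tfrc probe 1 under LPS changed sign in 2 of 12 alternatives and that of Tfrc probe 2 in basal cells in 1 of 11. For Hmox1 probe 1 the LPS change in knockout cells was 0.064 with scaling to the 75th percentile, 0.045 with the mean over the gene's probes, and from -1.30 to 1.20 with an array left out. Its LPS change in wildtype cells ranged from -0.88 to 0.19 and its difference of effects from -0.74 to 1.33 with an array left out. Hmox1 probe 2 with LPS in knockout cells ranged from -0.15 to 0.43 and Nqo1 with LPS in wildtype cells from -0.0076 to 0.26. Fth1 with LPS in knockout cells was at 0.0098 with the processed signals and at 0.55 with scaling to the 75th percentile. The causes were not tested. Filters on dim probes changed no call of a member probe they kept. Over all probes, 1292 were called in basal cells, 3286 under LPS and 4915 in the average, against 5022, 6371 and 10466 with median centring, 788, 1826 and 3005 from the processed signals, and 656 or 498 under LPS without LPS 1 or LPS 2. The LPS response had 11734 calls in wildtype and 11795 in knockout cells, against 18746 and 17734 with scaling to the 75th percentile, 6403 and 5494 without basal 1, and 6096 and 4805 without basal 2. The 115 calls in the difference of effects ranged from 11 (without LPS 2) to 329 (without basal 1) over the alternatives run.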

Other observations

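Spic encodes a transcription factor of heme-handling red pulp macrophages. Its log2 level rose with LPS by 1.81 ± 0.30 in wildtype and 3.26 ± 0.65 in knockout cells (limma adjusted p = 0.0099 and 0.018). Its log2 ratio of knockout over wildtype was -0.16 and -0.25 on the basal arrays, 0.71 on LPS 1 and 1.79 on LPS 2, a difference under LPS of 1.25 ± 0.22 (limma adjusted p = 0.016). LPS 2, where Spic had its highest ratio, was also the array with the ratio of Hmox1 closest to 0. Spic was named after its values were seen, and its test of the difference of effects gave 1.45 ± 0.31 (limma adjusted p = 0.15). It was 1 of 6 red pulp macrophage markers, and the others went both ways under LPS. The knockout differed from wildtype by 0.36 for Vcam1 and 0.52 for Cd163, which was not well above background in wildtype cells. The differences were -1.39 for Hmox1 probe 1, -0.53 for Slc40a1 and -0.07 for Treml4.

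Hbb-bt, a beta globin gene, read 6.61 and 7.55 in basal and 10.78 and 11.56 in LPS wildtype cells, and 8.83 and 6.45 in basal and 12.82 and 13.54 in LPS knockout cells. The rise with LPS was 4.09 ± 0.41 in wildtype and 5.53 ± 0.82 in knockout cells (limma adjusted p = 0.0024 and 0.0083). Its ratio went both ways in basal cells, at 2.22 and -1.09. The beta globin genes are near-identical, so which of them the probe reads is uncertain, and Hbb-bt was named after its values were seen.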
